A study of Mus musculus with 8 samples.

Results

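The chaperones and co-chaperones described here were 59 genes chosen by symbol from the 55573 gene IDs of the deposited tables. All 59 were matched to a gene ID, and all 59 passed the filter on low counts, which kept 18205 genes for testing. They were divided by role into 7 cytosolic HSP70 and HSP110 genes, 7 genes of cytosolic HSP90 and its co-chaperones, 11 cytosolic J proteins, 6 BAG proteins, 8 subunits of the chaperonin TRiC, 12 genes of the endoplasmic reticulum, 4 mitochondrial genes, 3 small heat shock proteins and the transcription factor Hsf1.

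RNA-seq was made from tdTomato-positive cells sorted by flow cytometry from enzymatically and mechanically dissociated mouse cerebral cortex. KO cells carried PV-Cre, the tdTomato reporter and the Dnmt1 loxP2 allele, in which exons 4 and 5 are flanked by loxP sites, and WT cells carried PV-Cre and the reporter with wild-type Dnmt1. Cre was driven by the parvalbumin gene, Dnmt1 encodes the maintenance DNA methyltransferase, and the mice were on a C57BL/6 background with the floxed allele brought in from a B6;129Sv stock. The 4 groups were KO at 18 months, WT at 18 months, KO at 6 months and WT at 6 months, each with 2 libraries that the submitters call technical replicates. Cells came from pools of 6 KO and 6 WT mice, with RNA taken from 1 hemisphere. The p-values below accordingly reflect how far libraries of the same pool differ, which may be technical. They carry no information on differences between animals.

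Chaperones bind unfolded or partly folded proteins and use cycles of ATP binding and hydrolysis, or passive holding, to keep them from aggregating. HSP70 proteins are loaded with clients by J proteins, are reset by nucleotide exchange factors such as the HSP110 and BAG proteins, and pass some clients on to HSP90, while TRiC encloses actin, tubulin and other cytosolic clients in a chamber. The endoplasmic reticulum and the mitochondria have HSP70 proteins and partners of their own, and the heat shock factor HSF1 and the unfolded protein response raise the cytosolic and the endoplasmic reticulum sets when proteins misfold. In brain, small heat shock proteins are found chiefly in glia, and neurons depend on J proteins for the removal of clathrin from vesicles.

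Library totals ranged from 6008175 to 13551218 counts, and the replicate libraries of a group correlated at 0.976 to 0.992 in log CPM. The 2 WT libraries of 6 months had the fewest counts (6008175 and 6024905) and the lowest correlation (0.976). In them the gene Gm26917 took 9.97 and 9.29% of counts, against 1.67 to 4.98% in the other libraries. Mitochondrially encoded genes took 1.60 and 1.16%, against 2.28 to 7.19%. This group enters the comparisons at 6 months and with age in WT cells. The part of its depth and composition in the results below was not tested. CPM is the read count of a gene scaled to the TMM-adjusted total of its library. Dnmt1 averaged 75.4 CPM in KO and 80.9 CPM in WT cells at 18 months (adjusted p = 0.281) and 76.2 CPM in KO and 100.8 CPM in WT cells at 6 months (adjusted p = 0.0001, edgeR quasi-likelihood test), and counts over the whole gene do not separate the deleted exons. Pvalb, which defines the labelled cell type, had 6 reads over the 8 libraries. Markers of other cell types were high and moved with the groups. The summed level of 12 oligodendrocyte markers ranged from 28190 to 28710 CPM in KO and 41540 to 41600 CPM in WT cells at 18 months, and from 30780 to 31710 CPM in KO and 14190 to 14230 CPM in WT cells at 6 months. All 12 were lower in KO cells at 18 months and all 12 higher at 6 months. For 10 astrocyte markers the sums ranged from 8844 to 8876 CPM in KO and 4075 to 4114 CPM in WT cells at 18 months, and from 7180 to 7200 CPM in KO and 11790 to 11860 CPM in WT cells at 6 months, with all 10 higher in KO cells at 18 months and all 10 lower at 6 months. No marker of the 9 lists was at 0 in every library. Fewer cells of a type and less RNA per cell cannot be told apart in these bulk libraries, and the part of the cell mixture in the results below was not tested.

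At 18 months the chaperone genes were mostly lower in KO cells. Of the 59 members 31 were lower and 6 higher in KO than in WT cells at an adjusted p under 0.05, 37 in all (62.7%), against a background of 32.1% of all tested genes called, 17.4% lower and 14.7% higher. Their median log2 fold change was -0.24, against 5.13e-15 over all tested genes. Summed over the 59 genes, the level was 6634 and 6803 CPM in KO and 8661 and 8693 CPM in WT libraries at 18 months. The WT libraries of 18 months stood above the other 6 libraries, which lay between 6578 and 6888 CPM.

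At 6 months the 2 directions were closer. In KO against WT cells 9 members were higher and 14 lower, 23 in all (39.0%), against a background of 38.8% called, 19.2% higher and 19.6% lower, with a median log2 fold change of -0.03 in the members and -0.00481 in all tested genes. The share of members called was thus close to the background at this age. Genes with many reads are called more often. Among the 10123 genes with a mean of at least 10 CPM, which hold 55 members, 44.8% were called at 18 months and 51.7% at 6 months, against 35 and 22 of the members.

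**Figure D1:**
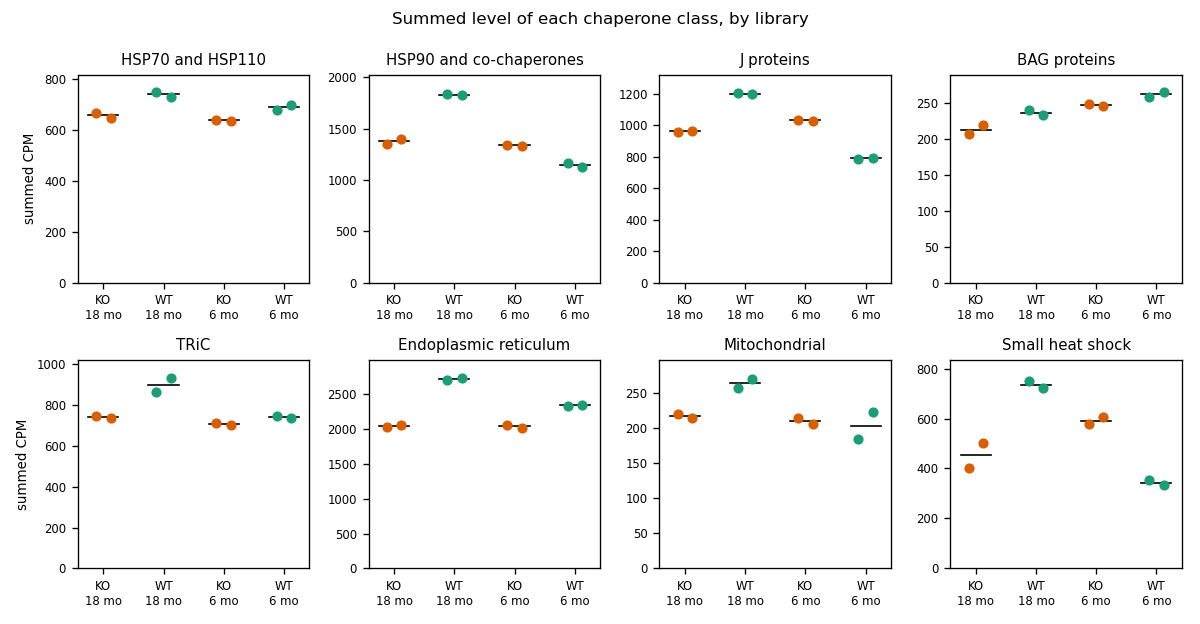
Summed level (CPM, linear axis from 0) of the members of 8 chaperone classes in each library (points) with the mean of the 2 libraries of a group (line), for KO and WT cells at 18 and 6 months. WT cells at 18 months had the highest sum in 7 of the 8 classes, and the small heat shock sum followed Cryab.

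In the plot of class sums, the WT libraries of 18 months lay above the other libraries in every class but the BAG proteins, where WT at 6 months was highest (261.3 CPM on average). The ratio of KO to WT sums at 18 months was 0.889 for HSP70 and HSP110, 0.753 for HSP90 and its co-chaperones, 0.802 for the J proteins, 0.901 for the BAG proteins, 0.826 for TRiC, 0.753 for the endoplasmic reticulum, 0.821 for the mitochondrial genes and 0.615 for the small heat shock proteins. At 6 months the same ratios were 0.924, 1.17, 1.31, 0.946, 0.956, 0.871, 1.03 and 1.72. The libraries of the groups did not overlap in these sums, apart from the mitochondrial class at 6 months. Such separation of 2 against 2 technical libraries cannot give an exact permutation p below 0.333. How often the sums of other gene sets separate in this way was not tested. A sum is carried by its most abundant members. Without Hspa8 the HSP70 and HSP110 ratio was 1.03 at 18 months, and without Dnajb2 the J protein ratios were 0.901 at 18 months and 1.13 at 6 months. Without Hsp90ab1 the HSP90 ratios were 0.777 at 18 months and 1.05 at 6 months, and without Cryab those of the small heat shock proteins were 2.01 and 0.546. The median log2 fold change at 18 months was -0.45 over the HSP90 class but -0.0145 over the J proteins, of which 9 of 11 were not called. With library totals as the only scaling the 18-month ratios lay closer to 1 in all 8 classes, from 0.679 for the small heat shock proteins to 0.995 for the BAG proteins.

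Within the cytosolic HSP70 class, the constitutive and the inducible genes differed. Hspa8 encodes the constitutive HSC70, which also strips clathrin from vesicles. It had 202.9 and 211.1 CPM in KO and 307.3 and 293.6 CPM in WT libraries at 18 months, and 212.0 and 230.4 CPM in KO and 237.7 and 267.4 CPM in WT libraries at 6 months. Transcripts of Hspa8 share 39.4% of their 50-base stretches with other genes, chiefly Gm15459, so the count depends on how shared reads were treated. KO libraries were below WT libraries at both ages, with a log2 fold change of -0.54 ± 0.0632 (SE, adjusted p = 4.01e-07) at 18 months and of -0.19 ± 0.0659 (adjusted p = 0.0239) at 6 months, and the 6-month call was lost without any of 4 single libraries (adjusted p up to 0.364, without replicate 2 of WT at 6 months).

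The heat-inducible pair Hspa1a and Hspa1b, which lie next to each other on mouse chromosome 17 (chr17:34969190-34972156 and chr17:34956436-34959238, GRCm38, minus strand), was lower at 18 months in both genotypes. Hspa1a had 10.8 and 9.32 CPM in KO and 8.78 and 8.01 CPM in WT libraries at 18 months, and 16.8 and 15.0 CPM in KO and 26.7 and 20.8 CPM in WT libraries at 6 months. Hspa1b had 15.5 and 13.2 CPM in KO and 13.8 and 15.1 CPM in WT libraries at 18 months, and 26.2 and 25.9 CPM in KO and 35.4 and 27.5 CPM in WT libraries at 6 months. All 18-month libraries lay below all 6-month libraries for both genes. In WT cells Hspa1a fell by 1.51 on the log2 scale with age (adjusted p = 3.05e-08) and Hspa1b by 1.11 (adjusted p = 3.56e-07), and in KO cells by 0.66 (adjusted p = 0.00235) and 0.86 (adjusted p = 3.2e-05). Hspa1a was also lower in KO than in WT cells at 6 months (-0.57 ± 0.155, adjusted p = 0.00473), a call lost without replicate 1 of WT or replicate 2 of KO at that age (adjusted p of 0.108 and 0.0693). Their transcripts share 58.8% of the 50-base stretches of Hspa1a, so reads could be split between them or discarded, depending on counting settings not given in the sources used here.

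Per kb of the principal transcript, the inducible pair made up 9.75 and 8.17% of the joint level of Hspa1a, Hspa1b and Hspa8 in KO and 5.78 and 6.18% in WT libraries at 18 months, against 14.5 and 12.9% in KO and 17.9 and 13.1% in WT libraries at 6 months. The share was lower in all 4 libraries of 18 months. Per kb of all exons it was larger, 9.93 to 16.3% at 18 months and 21.1 to 28.1% at 6 months, in the same order. Genes of the immediate early and dissociation response, which cells raise within minutes of handling, moved the same way with age: 19 of 22 were lower at 18 months in KO cells and 16 of 22 in WT cells, with 0 and 3 higher, against 17.9% of all tested genes lower in KO cells and 30.8% in WT cells. The summed level of these 22 genes was 389.2 to 418.0 CPM in KO and 527.0 to 533.1 CPM in WT cells at 18 months, and 662.0 to 698.9 CPM in KO and 687.8 to 738.6 CPM in WT cells at 6 months. Their part in the age difference of Hspa1a and Hspa1b was not tested.

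Among the HSP110 genes, 2 were higher in KO cells at 18 months. Hsph1, a nucleotide exchange factor for HSP70, had 165.1 and 159.9 CPM in KO and 142.9 and 139.8 CPM in WT libraries at 18 months. At 6 months it had 129.9 and 114.6 CPM in KO and 130.0 and 132.4 CPM in WT libraries. Hspa4l, an HSP110 protein that is close to Hspa4, had 136.8 and 121.0 CPM in KO and 117.0 and 107.8 CPM in WT libraries at 18 months. The values at 6 months were 110.2 and 99.3 CPM in KO and 126.7 and 107.2 CPM in WT libraries. The KO libraries of 18 months were the highest for Hsph1. Both genes were higher in KO than in WT cells at 18 months, by a log2 fold change of 0.20 each (adjusted p = 0.0163 for Hsph1 and 0.0499 for Hspa4l), and both rose with age in KO cells, by 0.41 (adjusted p = 3.1e-05) and 0.30 (adjusted p = 0.00559). With age in WT cells the adjusted p was 0.183 and 0.543. The genotype calls of both genes were lost when replicate 1 of KO (adjusted p of 0.101 for Hsph1 and 0.431 for Hspa4l) or replicate 2 of WT at 18 months (0.0924 and 0.293) was left out.

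Hspa4, the third HSP110 gene, did not share this pattern, with a mean of 114.2 CPM in KO and 148.8 CPM in WT cells at 18 months (log2 fold change -0.38, adjusted p = 0.000296). Hspa12a, a distant HSP70 relative, had 21.2 and 20.8 CPM in KO and 11.8 and 16.3 CPM in WT libraries at 18 months. In the younger mice it had 27.8 and 30.1 CPM in KO and 28.0 and 23.2 CPM in WT libraries. Its 18-month libraries were all below its 6-month libraries. Hspa12a was higher in KO than in WT cells at 18 months (0.54 ± 0.141, adjusted p = 0.00409), a call lost without replicate 1 of WT (adjusted p = 0.0752).

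Of cytosolic HSP90 and its co-chaperones 6 of 7 members were lower in KO cells at 18 months and 1 was higher. Hsp90ab1, the constitutive HSP90 gene, had 707.6 and 766.3 CPM in KO and 1011 and 1002 CPM in WT libraries at 18 months, and 711.0 and 729.1 CPM in KO and 573.5 and 533.9 CPM in WT libraries at 6 months. Hsp90aa1, the inducible HSP90 gene, had 139.4 and 145.3 CPM in KO and 205.8 and 213.2 CPM in WT libraries at 18 months, and 143.0 and 131.9 CPM in KO and 117.4 and 118.1 CPM in WT libraries at 6 months. In both genes the KO libraries of the 2 ages overlapped, and the WT libraries lay above them at 18 months and below them at 6 months. KO against WT gave a log2 fold change of -0.45 ± 0.0542 at 18 months (adjusted p = 5.71e-07) and 0.38 ± 0.0555 at 6 months (adjusted p = 5.74e-06) for Hsp90ab1, and -0.56 ± 0.0602 (adjusted p = 1.03e-07) and 0.22 ± 0.0668 (adjusted p = 0.00976) for Hsp90aa1. The call of Hsp90aa1 at 6 months was lost without replicate 1 of KO (adjusted p = 0.133) and with library totals as the only scaling (adjusted p = 0.0513). Per kb of the principal transcript Hsp90aa1 made up between 12.2 and 14.5% of the cytosolic HSP90 level in every library, so the balance of the 2 genes moved little while their levels changed. Transcripts of Hsp90aa1 share 47.5% of their 50-base stretches with other genes, chiefly the pseudogene Gm12346.

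Of the co-chaperones, Stip1 (HOP, which joins HSP70 to HSP90), Fkbp4 (an immunophilin of steroid receptor complexes), Ahsa1 (an activator of the HSP90 ATPase) and St13 (an HSP70-interacting protein) were lower in KO cells at 18 months, with log2 fold changes of -0.51, -0.49, -0.43 and -0.34 and adjusted p-values of 1.6e-06, 1.54e-06, 6.43e-05 and 0.000204. At 6 months St13 was higher in KO cells (0.23, adjusted p = 0.00996) and Stip1 lower (-0.20, adjusted p = 0.0257), and the other 2 had fold changes of 0.02 for Ahsa1 and -0.03 for Fkbp4 that did not pass the test. Both 6-month calls were lost in fits without 1 library, on removal of any of 2 libraries for St13 and any of 5 for Stip1. The log2 fold change was 0.16 for St13 without replicate 1 of KO at 6 months and -0.15 for Stip1 without replicate 2. With DESeq2 Stip1 was not called at 6 months (adjusted p = 0.124).

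Chordc1, an HSP90 co-chaperone that is itself heat-inducible, was the exception in this class. It had 111.5 and 96.9 CPM in KO and 89.3 and 79.7 CPM in WT libraries at 18 months. The 6-month values were 66.4 and 56.7 CPM in KO and 60.7 and 57.8 CPM in WT libraries. The KO libraries of 18 months were the highest and the groups of 6 months overlapped. The change with age was a log2 fold change of 0.76 ± 0.087 in KO (adjusted p = 3.84e-07) and 0.50 ± 0.0944 in WT cells (adjusted p = 6.92e-05). KO exceeded WT at 18 months by 0.31 ± 0.0828 (adjusted p = 0.00523), a call lost without replicate 1 of KO (0.20, adjusted p = 0.133) or replicate 2 of WT (0.24, adjusted p = 0.105).

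The heat shock element is the DNA motif that HSF1 binds in front of heat-inducible genes, as inverted repeats of GAA. It was searched on both strands of RefSeq promoter windows (GRCm38.p6, 250 bases before to 50 bases after each gene start). The pattern was GAA, TTC and GAA, or TTC, GAA and TTC, with 2 bases of any kind between neighbouring blocks, so that longer runs of blocks give overlapping matches. Of 32851 promoters 198 (0.603%) held it, among them 7 of the 65 promoters of members. They belong to 5 of the 48 members that have a RefSeq promoter. These were Chordc1, Hsph1, Dnajb6, and the mitochondrial chaperonin genes Hspd1 and Hspe1, which share 1 stretch on opposite strands. The stretches are shown 5′ to 3′ on the strand of the gene with matched bases in capitals, since Chordc1 and Hsph1 are among the 4 members that were higher at 18 than at 6 months in KO cells.
Chordc1, chr9:18292260-18292288, plus strand: ccgGAACGTTCGGGAAAATTCCTGAAgca
Hsph1, chr5:149636280-149636308, minus strand: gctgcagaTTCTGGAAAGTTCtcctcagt
Dnajb6, chr5:29735844-29735872, plus strand: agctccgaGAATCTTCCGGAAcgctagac
Hspd1, chr1:55088053-55088082, minus strand: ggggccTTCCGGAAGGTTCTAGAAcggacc
The Chordc1 stretch held 3 overlapping matches and the Hspd1 stretch 2. In Hsph1 the match lay after the gene start in each of its promoter windows. The 5 genes did not move together: with age in KO cells Hspd1 had a log2 fold change of 0.26 (adjusted p = 0.0931) and Hspe1 one of -0.21 (adjusted p = 0.43), and Dnajb6 was not called either (adjusted p = 0.99). A match is a description of the letters in this window and not a measured binding site. Hspa1a, Hspa1b, Hsp90aa1 and Dnajb1 were not among the genes found. This does not show that they lack the element, since other forms, sites outside the window and members without a RefSeq promoter were not searched.

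Hsf1 itself had 49.8 and 54.5 CPM in KO and 56.8 and 55.8 CPM in WT libraries at 18 months. At 6 months it had 53.4 and 62.6 CPM in KO and 68.1 and 61.6 CPM in WT libraries. The libraries of the groups were close, and Hsf1 was not called in any of the 5 tests (adjusted p from 0.0624 to 0.786). Its log2 fold change with age in WT cells was -0.20. It passed the test with library totals alone (-0.30, adjusted p = 0.00741), with a filter at a mean of 5 CPM (-0.26, adjusted p = 0.0199) and with the replicate block (-0.21, adjusted p = 0.0407).

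Among the J proteins, which load clients onto HSP70, Dnajb2 and Dnajc6 had the clearest pattern. Dnajb2 (chr1:75236406-75245692), known as a neuronal J protein that hands clients to the proteasome, had 306.7 and 310.2 CPM in KO and 476.3 and 473.0 CPM in WT libraries at 18 months, and 369.3 and 380.0 CPM in KO and 216.9 and 196.6 CPM in WT libraries at 6 months. Dnajc6 (chr4:101496648-101642799), which encodes auxilin, the partner of HSC70 in clathrin uncoating at synapses, had 148.4 and 145.4 CPM in KO and 220.3 and 219.3 CPM in WT libraries at 18 months, and 161.6 and 154.8 CPM in KO and 81.6 and 83.0 CPM in WT libraries at 6 months. In both genes the WT libraries were the highest of the 8 at 18 months and the lowest at 6 months, with the KO libraries of both ages between them. KO against WT gave a log2 fold change of -0.62 ± 0.0562 at 18 months and 0.86 ± 0.0597 at 6 months for Dnajb2 (adjusted p = 7.01e-09 and 3.22e-11), and -0.58 ± 0.0575 and 0.94 ± 0.0662 for Dnajc6 (adjusted p = 2.82e-08 and 3.71e-11). All settings and all fits without 1 library kept these 4 calls.

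Dnajb5, a cytosolic J protein of the DNAJB group, ran against them. It had 25.7 and 28.8 CPM in KO and 28.8 and 30.2 CPM in WT libraries at 18 months. The values at 6 months were 41.5 and 44.7 CPM in KO and 76.2 and 79.6 CPM in WT libraries. The WT libraries of 6 months were the highest and the 18-month groups were close to each other. KO was below WT at 6 months by a log2 fold change of -0.86 ± 0.0932 (adjusted p = 6.34e-08), and Dnajb5 fell with age by 0.66 in KO (adjusted p = 1.22e-05) and by 1.40 in WT cells (adjusted p = 6.33e-12). At 6 months Dnajb1, the main heat-inducible J protein, was also lower in KO cells (-0.36, adjusted p = 0.00235), while Dnajc7 (0.39, adjusted p = 7.12e-05) and Dnaja1 (0.35, adjusted p = 0.0128) were higher, the last of these calls being lost without replicate 1 of WT (adjusted p = 0.168). At 18 months the 9 J proteins other than Dnajb2 and Dnajc6 were not called. Dnajb4, a broadly expressed J protein, had 56.3 and 59.7 CPM in KO and 59.3 and 55.4 CPM in WT libraries at 18 months. In the younger mice it had 47.8 and 44.4 CPM in KO and 44.9 and 46.3 CPM in WT libraries, a rise with age of 0.33 in each genotype (adjusted p = 0.00431 in KO and 0.00364 in WT cells) and a difference between the genotypes of 0.02 at each age. The rise in KO cells was lost without replicate 2 of KO at 6 months (adjusted p = 0.0801). Dnajc7 overlaps the oligodendrocyte gene Cnp and Nkiras2 on the opposite strand, and Dnaja4 overlaps Wdr61, so reads of these genes cannot be told apart if counting ignored strand.

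**Figure D2:**
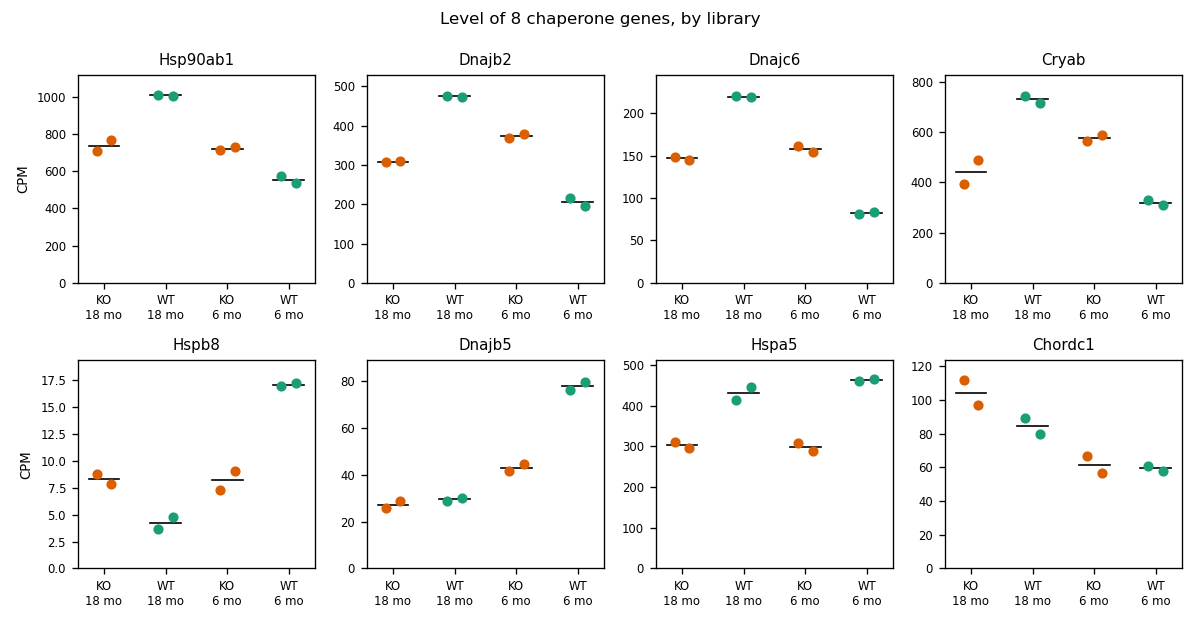
Level (CPM, linear axis from 0) of 8 chaperone genes in each library (points) with the mean of the 2 libraries of a group (line), for KO and WT cells at 18 and 6 months. In Hsp90ab1, Dnajb2, Dnajc6 and Cryab the WT libraries were highest at 18 and lowest at 6 months, Hspb8 had the opposite order, and Hspa5 was lower in KO cells at both ages.

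Of the 6 BAG proteins, which release clients from HSP70, 1 was called with genotype at 18 months and 1 at 6 months, Bag1 each time. Bag6, which guards newly made membrane proteins, had 134.3 and 141.5 CPM in KO and 151.2 and 144.7 CPM in WT libraries at 18 months. The 6-month values were 167.0 and 170.6 CPM in KO and 181.1 and 172.8 CPM in WT libraries. Its 18-month libraries were all below its 6-month libraries, and it fell with age by 0.29 in KO (adjusted p = 0.000662) and 0.26 in WT cells (adjusted p = 0.00101). Bag1, which couples HSP70 to the proteasome, was lower in KO cells at both ages, by 0.73 on the log2 scale at 18 months (adjusted p = 0.000185) and 0.48 at 6 months (adjusted p = 0.00887, lost without replicate 2 of either genotype of that age at adjusted p of 0.0725 in KO and 0.112 in WT). Bag3, the stress-inducible BAG protein of selective autophagy, rose with age in WT cells (0.55, adjusted p = 0.00132), and its changes did not pass the test in the other comparisons. In the interaction of genotype and age 0 of the 6 BAG genes were called by edgeR or DESeq2, with 1 at an unadjusted p under 0.05.

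TRiC is a double ring built from 8 different subunits in equal numbers. At 18 months 6 of the 8 subunit genes were lower in KO cells, with log2 fold changes from -0.43 for Cct6a to -0.24 for Cct3 and Cct8, and the other 2 had -0.07 (Cct4) and -0.09 (Tcp1) and were not called. Cct5 had 104.2 and 108.2 CPM in KO and 128.9 and 146.2 CPM in WT libraries at 18 months. At 6 months it had 96.4 and 98.7 CPM in KO and 128.6 and 118.4 CPM in WT libraries. KO libraries lay below WT libraries at each age for Cct5, with a log2 fold change of -0.38 ± 0.0687 at 18 months (adjusted p = 0.000128) and -0.34 ± 0.0749 at 6 months (adjusted p = 0.000777). The only other subunit called at 6 months was Cct3 (-0.23, adjusted p = 0.0388). Without replicate 2 of WT of the same age its log2 fold change was -0.10 at 18 months and -0.09 at 6 months. With DESeq2 Cct3 was not called at either age (adjusted p of 0.0545 at 18 and 0.128 at 6 months). Its call was lost on removal of any of 2 libraries at 18 months and any of 5 at 6 months. Cct7 and Cct8 also lost theirs at 18 months without replicate 2 of WT (adjusted p of 0.0509 and 0.0798). Per kb of the principal transcript, the most abundant subunit gene stood 1.74 and 1.78 times above the least abundant in KO and 2.01 and 2.08 times in WT libraries at 18 months, and 1.69 and 1.77 times in KO and 2.56 and 2.27 times in WT libraries at 6 months. This spread was smaller in the 4 KO libraries than in the 4 WT libraries, also per kb of all exons (2.48 to 2.63 times in KO and 2.83 to 3.14 times in WT libraries). By the group means Cct5 was the most abundant subunit gene in every group with either length. The ratio therefore carries the genotype difference of Cct5 given above and does not measure the balance of all 8 subunits.

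In the endoplasmic reticulum class 10 of 12 genes were lower in KO cells at 18 months and the other 2 were not called, and at 6 months 5 were lower and 1 higher. Hspa5 (chr2:34771970-34777547), which encodes BiP, the HSP70 of this compartment and the sensor that keeps the unfolded protein response off, had 310.6 and 296.6 CPM in KO and 414.9 and 446.8 CPM in WT libraries at 18 months. The values at 6 months were 309.3 and 289.8 CPM in KO and 460.4 and 465.1 CPM in WT libraries. All 4 KO libraries lay below all 4 WT libraries, by a log2 fold change of -0.51 ± 0.0572 at 18 months (adjusted p = 2.12e-07) and -0.63 ± 0.0586 at 6 months (adjusted p = 5.08e-09). With age Hspa5 had a fold change of 0.02 in KO (adjusted p = 0.836) and -0.10 in WT cells (adjusted p = 0.134).

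Further folding genes of this compartment had the same order at both ages. Pdia6, a protein disulfide isomerase that binds BiP, had 89.8 and 92.8 CPM in KO and 118.6 and 121.2 CPM in WT libraries at 18 months. In the younger mice it had 87.5 and 86.9 CPM in KO and 120.5 and 128.0 CPM in WT libraries, with log2 fold changes of -0.40 ± 0.0643 (adjusted p = 3.58e-05) and -0.51 ± 0.0693 (adjusted p = 1.93e-06). Calr, the soluble lectin chaperone and calcium store calreticulin, was lower in KO cells by 0.39 at 18 months (adjusted p = 2.69e-05) and by 0.37 at 6 months (adjusted p = 3.66e-05). Hyou1, the HSP110-like exchange factor of BiP, was lower by 0.32 (adjusted p = 0.00021) and 0.37 (adjusted p = 5.55e-05). For each of these genes the 4 KO libraries did not overlap the 4 WT libraries. Pdia4, another disulfide isomerase, had 94.2 and 97.2 CPM in KO and 105.2 and 103.4 CPM in WT libraries at 18 months (-0.12, adjusted p = 0.162). The 6-month values were 92.3 and 90.5 CPM in KO and 121.8 and 132.7 CPM in WT libraries (-0.48 ± 0.0701, adjusted p = 6e-06). Pdia4 fell by 0.29 with age in WT cells (adjusted p = 0.000888).

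Canx, the membrane-bound lectin chaperone calnexin (chr11:50293961-50325673), behaved differently from its soluble relative Calr. It had 385.8 and 369.3 CPM in KO and 541.2 and 517.4 CPM in WT libraries at 18 months. At 6 months it had 374.2 and 360.1 CPM in KO and 286.1 and 280.5 CPM in WT libraries. As in Hsp90ab1, the KO libraries of the 2 ages overlapped, while WT lay above them at 18 and below them at 6 months. KO against WT gave a log2 fold change of -0.49 ± 0.0541 at 18 months (adjusted p = 1.68e-07) and 0.37 ± 0.0567 at 6 months (adjusted p = 9.32e-06). Sdf2l1, a small partner of the BiP cycle, had the largest change of the class at 18 months (-0.81, adjusted p = 6.18e-05). P4hb (-0.45), Hsp90b1 (GRP94, -0.42), Dnajb11 (-0.40) and Pdia3 (-0.28) were also lower, of which Pdia3 lost its call with library totals as the only scaling (adjusted p = 0.0807). Only Pdia4 and Dnajb9 of the 12 were not called at 18 months.

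The promoters of 5 of these genes held the endoplasmic reticulum stress element, a split motif known from genes of the unfolded protein response. It was searched on both strands as CCAAT and CCACG with 9 bases of any kind between them. Of 32851 promoters 39 (0.119%) held it, among them 5 of the 65 promoters of members. They belong to 5 of the 48 members that have a RefSeq promoter. The stretches are given 5′ to 3′ on the strand of the gene in GRCm38.p6 with the matched stretch in capitals. They are shown since 3 of the 5 genes were lower in KO cells at both ages and 2 were not.
Hspa5, chr2:34772020-34772048, plus strand: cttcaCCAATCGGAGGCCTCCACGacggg
Pdia6, chr12:17266471-17266529, plus strand: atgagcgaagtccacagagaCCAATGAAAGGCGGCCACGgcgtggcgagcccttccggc
Calr, chr8:84847055-84847113, minus strand: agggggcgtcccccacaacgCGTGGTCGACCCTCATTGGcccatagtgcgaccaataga
Canx, chr11:50325780-50325838, minus strand: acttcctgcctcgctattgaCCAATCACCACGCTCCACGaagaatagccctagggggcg
Hsp90b1, chr10:86705513-86705676, minus strand: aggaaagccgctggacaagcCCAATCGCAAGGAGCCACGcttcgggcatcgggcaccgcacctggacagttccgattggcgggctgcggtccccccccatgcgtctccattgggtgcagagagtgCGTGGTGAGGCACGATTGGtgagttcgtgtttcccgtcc
Hsp90b1 held 2 matches, and the last of them and the match in Calr were on the other strand. All 5 genes were lower in KO cells at 18 months, from -0.39 for Calr to -0.51 for Hspa5. At 6 months Hspa5, Pdia6 and Calr were lower, Hsp90b1 had a log2 fold change of -0.04 (adjusted p = 0.579) and Canx was higher. The 5 genes thus had no shared direction at that age. Members without the motif were not compared, and its part in these changes was not tested.

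Of the 4 mitochondrial genes 3 were lower in KO cells at 18 months, and 0 were called at 6 months by edgeR or DESeq2, also with 0 at an unadjusted p under 0.05. Hspa9, the mitochondrial HSP70 mortalin, had 132.1 and 122.2 CPM in KO and 144.8 and 153.7 CPM in WT libraries at 18 months. The values at 6 months were 127.5 and 121.3 CPM in KO and 110.4 and 134.5 CPM in WT libraries. The genotypes overlapped at 6 months only. At 18 months the log2 fold change was -0.23 ± 0.0732 for Hspa9 (adjusted p = 0.0164), -0.48 for the chaperonin gene Hspd1 (adjusted p = 0.001) and -0.28 for the J protein gene Dnaja3 (adjusted p = 0.0158). The calls of Hspa9 and Dnaja3 were lost without replicate 2 of WT at 18 months (adjusted p of 0.241 and 0.265), in Hspa9 also without replicate 2 of KO (0.132) and in Dnaja3 without replicate 1 of KO (0.123). Hspd1, whose transcripts share 42.1% of their 50-base stretches with other genes, chiefly Hspd1-ps3, rose with age in WT cells (0.92, adjusted p = 6.53e-07). Its partner Hspe1, which had under 10 CPM in every library, was not called in any test.

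The 3 small heat shock proteins, which hold unfolded clients without ATP, changed in opposite directions. Cryab (chr9:50751325-50756636), alpha B-crystallin, which is abundant in oligodendrocytes, had 392.7 and 490.6 CPM in KO and 744.9 and 716.4 CPM in WT libraries at 18 months, and 565.3 and 590.0 CPM in KO and 329.2 and 309.8 CPM in WT libraries at 6 months. Hspb8 (chr5:116408491-116422864), the partner of BAG3, had 8.78 and 7.85 CPM in KO and 3.64 and 4.77 CPM in WT libraries at 18 months, and 7.33 and 9.07 CPM in KO and 16.9 and 17.2 CPM in WT libraries at 6 months. Hspb1 (HSP25) had 2.44 and 2.93 CPM in KO and 1.63 and 0.924 CPM in WT libraries at 18 months, and 3.89 and 5.25 CPM in KO and 6.42 and 6.17 CPM in WT libraries at 6 months. WT cells had the most Cryab and the least Hspb8 and Hspb1 at 18 months, and the least Cryab and the most Hspb8 and Hspb1 at 6 months.

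KO cells had less Cryab than WT cells at 18 months (-0.73 ± 0.0713, adjusted p = 2.51e-08) and more at 6 months (0.85 ± 0.0741, adjusted p = 1.42e-09). For Hspb8 the log2 fold change was 0.95 ± 0.201 at 18 months (adjusted p = 0.000681) and -1.06 ± 0.184 at 6 months (adjusted p = 5.32e-05). For Hspb1 it was 1.14 ± 0.359 at 18 months (adjusted p = 0.0163), a call lost without replicate 2 of WT (adjusted p = 0.29) or of KO (adjusted p = 0.0941), and -0.46 ± 0.281 at 6 months (adjusted p = 0.205). Because Cryab makes up nearly the whole class sum, leaving it out turned the log2 ratio of the class to 1.01 at 18 months and -0.88 at 6 months. By their means, Cryab, Dnajb2 and Dnajc6 had the 4 groups in the order of the oligodendrocyte marker sums given above (WT at 18 months, KO at 6 months, KO at 18 months, WT at 6 months, high to low). Hspa4 and Cct6a had this order of means too. Hspb8 had the means in the order of the astrocyte sums, which was the reverse. Its KO libraries of the 2 ages overlapped, so the order of its KO groups is not settled. The part of these cells in either order was not tested. Of the 50-base stretches of Hspb1, 50.1% are shared with other genes, chiefly the pseudogene Hsp25-ps1, and 13.3% of those of Cryab are shared with its neighbour Hspb2, which had under 3 CPM in every library.

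**Figure D3:**
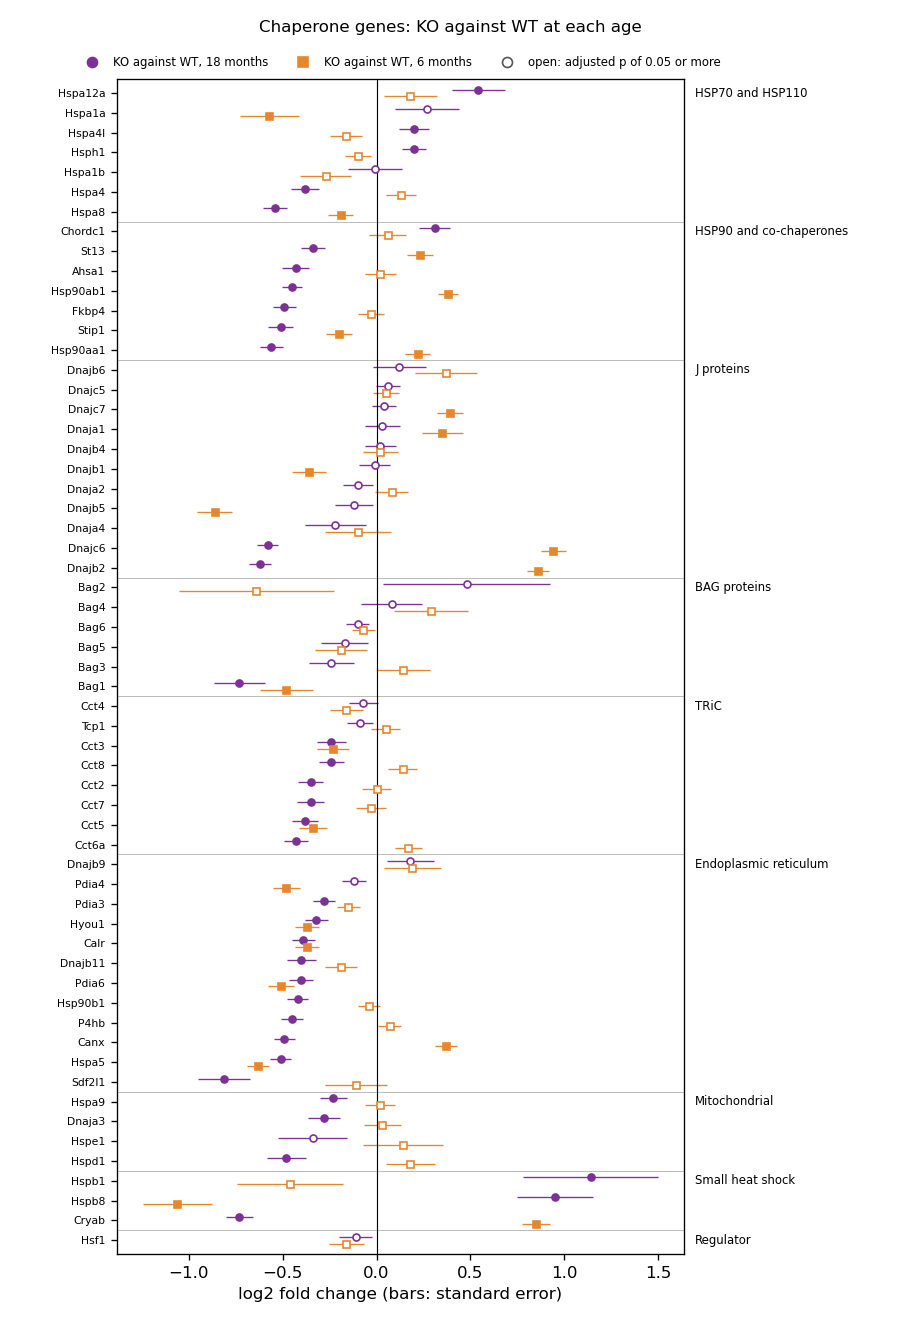
Log2 fold change of KO against WT (horizontal axis, bars give the standard error of the fit) for the 59 chaperone genes by class, at 18 months (circles) and 6 months (squares), with open symbols at an adjusted p of 0.05 or more. At 18 months 31 genes lie on the lower side as called and 6 on the higher side, and 7 of those called lower were called higher at 6 months.

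The plot of genotype fold changes shows which genes kept their direction. Of the members called at both ages 9 were lower in KO cells each time, namely Hspa8, Stip1, Bag1, Cct3, Cct5, Hspa5, Hyou1, Calr and Pdia6. These were 9 of the 31 lower at 18 months (29.0%) and 9 of the 14 lower at 6 months (64.3%). The comparisons at the 2 ages share no libraries, but both came from 1 model of all 8, which shares the estimate of spread. Of all tested genes 2.74% were lower at both ages, which is 15.7% of those lower at 18 months and 13.9% of those lower at 6 months. The 6-month calls of Hspa8, Stip1, Bag1 and Cct3 were lost with DESeq2 (adjusted p from 0.0602 to 0.128) and in at least 1 fit without 1 library, which leaves 5 of the 9. Another 7 (11.9%) were lower at 18 and higher at 6 months (Hsp90aa1, Hsp90ab1, St13, Dnajb2, Dnajc6, Canx and Cryab), against 7.9% of all tested genes. They made up 22.6% of the members lower at 18 months and 77.8% of those higher at 6 months. Of all tested genes the matching shares were 45.4% and 41.2%. The 64.3% and the 77.8% stand beside 52.5% of all 59 members lower at 18 months. Hspb8 was higher at 18 and lower at 6 months, as were 6.37% of all tested genes, and no member was higher at both. The oligodendrocyte marker sum was likewise lower in KO cells at 18 and higher at 6 months, the same directions as the 7. The sum of 8 microglia markers had these directions too. It was 71.86 to 73.59 CPM in KO and 157.9 to 168.8 CPM in WT cells at 18 months, with 8 of 8 lower. At 6 months it was 153.6 to 156.2 CPM in KO and 112.4 to 122.2 CPM in WT cells, with 3 higher and 0 lower. Markers of oligodendrocyte precursors were lower in KO cells at both ages, the same directions as the 9: 7 of 8 were lower and 1 higher at 18 months, and 8 of 8 lower at 6 months. Their summed level was 1620 to 1639 CPM in KO and 1723 to 1725 CPM in WT cells at 18 months, and 1730 to 1740 CPM in KO and 3893 to 3965 CPM in WT cells at 6 months. Of 7 tested markers of parvalbumin interneurons 4 were lower and 1 higher in KO cells at each age, with sums of 150.5 to 165.1 CPM in KO and 189.4 to 195.0 CPM in WT cells at 18 months, and 170.3 to 179.3 CPM in KO and 235.0 to 246.6 CPM in WT cells at 6 months. The part of these cells in either set of genes was not tested.

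The test of the difference itself, the interaction of genotype and age, called 29 of the 59 members (49.2%), against a background of 39.1% of all tested genes. It subtracts the genotype effect of the younger age from that of the older age, both on the log2 scale. Among genes of at least 10 CPM the background was 53.5%, against 27 of 55 members. In 21 members it was negative and in 8 positive, against 20.7% and 18.4% of all tested genes. Cryab (-1.58 ± 0.103, adjusted p = 7.39e-12), Dnajc6 (-1.52 ± 0.0877, adjusted p = 8.13e-13), Dnajb2 (-1.48 ± 0.082, adjusted p = 4.18e-13) and Canx (-0.86 ± 0.0784, adjusted p = 2.72e-09) had the smallest p-values among those below 0, and Hspb8 (2.01 ± 0.272, adjusted p = 1.66e-06) the smallest above 0. The split depended on scaling: with library totals alone it was 12 negative and 13 positive, while the median of all tested genes moved to 0.208, and with DESeq2 it was 20 negative and 4 positive.

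With age, the chaperone genes moved mostly upward in WT cells and little in KO cells. In WT cells 29 members were higher and 11 lower at 18 than at 6 months, 40 in all, against a background of 59% of all tested genes called, 28.2% higher and 30.8% lower. Among genes of at least 10 CPM 71.2% were called, against 37 of 55 members. The median log2 fold change was 0.26 in the members and -0.04 in all tested genes. In KO cells 4 were higher and 10 lower, 14 in all, against a background of 31.7% (13.8% higher and 17.9% lower), or 13 of 55 against 40.4% at 10 CPM and above, with medians of -0.0031 in the members and 0.00308 in all tested genes. Here too scaling mattered: with library totals alone the split was 24 higher and 16 lower in WT cells and 13 higher and 8 lower in KO cells.

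**Figure D4:**
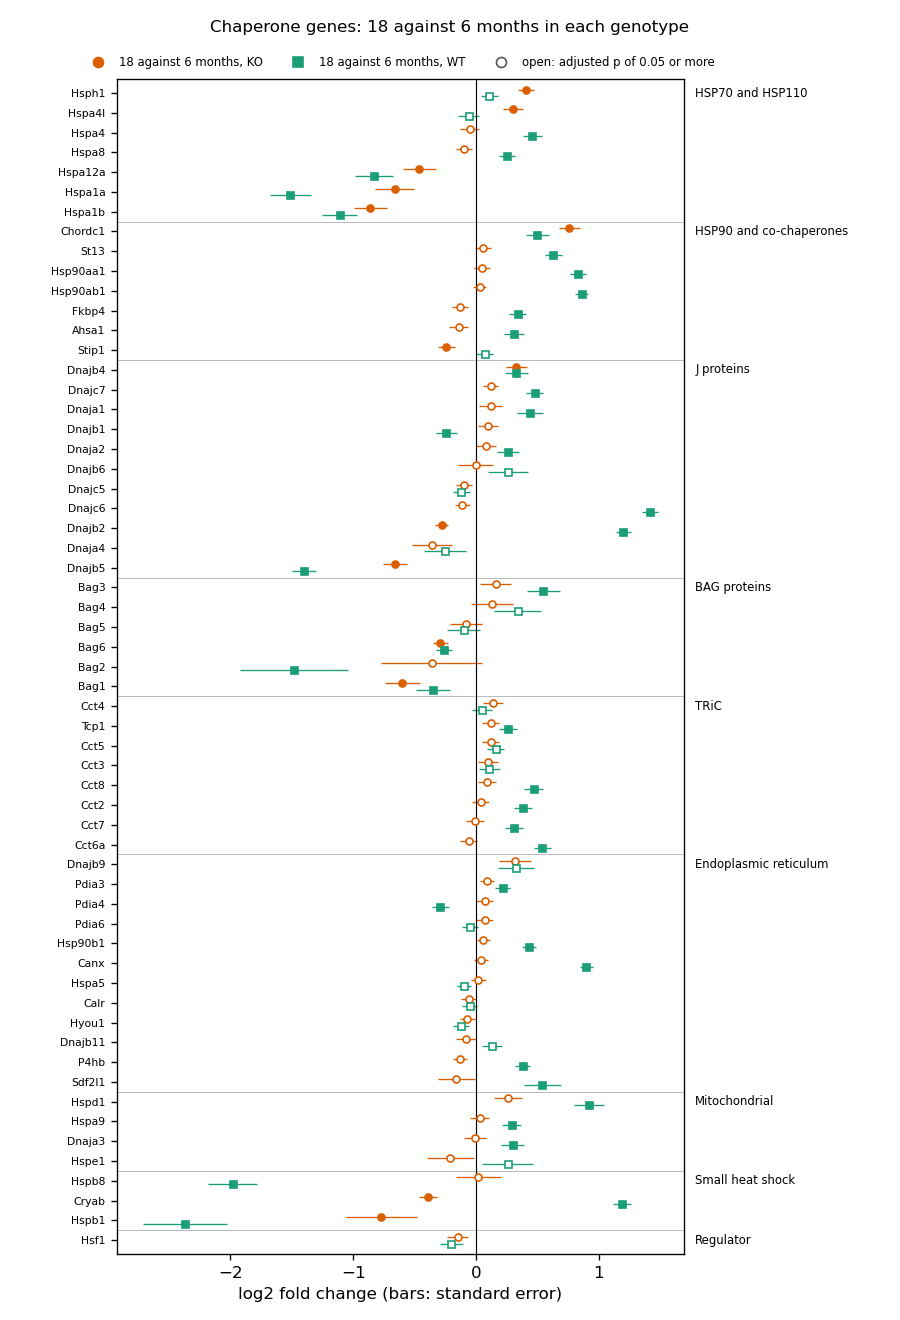
Log2 fold change of 18 against 6 months (horizontal axis, bars give the standard error of the fit) for the 59 chaperone genes by class, in KO cells (circles) and WT cells (squares), with open symbols at an adjusted p of 0.05 or more. In WT cells 29 genes are called higher and 11 lower with age, and in KO cells 4 and 10.

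In the plot of age fold changes, the WT points reach further from 0 than the KO points in most classes. The rises with age in WT cells were led by Dnajc6 (1.42 ± 0.0646, adjusted p = 3.1e-15), Dnajb2 (1.20 ± 0.0593, adjusted p = 1.39e-14), Cryab (1.19 ± 0.074, adjusted p = 9.87e-13) and Canx (0.90 ± 0.0562, adjusted p = 1.12e-12). By class, 6 of 7 HSP90 genes, 6 of 11 J proteins, 5 of 8 TRiC subunits, 5 of 12 endoplasmic reticulum genes and 3 of 4 mitochondrial genes were higher at 18 months in WT cells, while 2 J proteins and 1 endoplasmic reticulum gene were lower. Of the HSP70 and HSP110 genes 2 were higher and 3 lower, of the BAG genes 1 was higher and 3 were lower, and of the small heat shock genes 1 was higher and 2 were lower. In KO cells 0 of the TRiC, endoplasmic reticulum and mitochondrial genes were called with age by edgeR or DESeq2, with 0, 2 and 1 of them at an unadjusted p under 0.05. The largest decreases with age in WT cells were those of Hspb1 (-2.37, adjusted p = 2.21e-06) and Hspb8 (-1.98 ± 0.198, adjusted p = 5.8e-09), and Cryab and Dnajb2 fell with age in KO cells, by 0.39 (adjusted p = 0.000188) and 0.28 (adjusted p = 0.000491). Of the 14 calls in KO cells 8 were kept in every fit without 1 library, and the 6 lost in at least 1 were Hspa4l, Hspa12a, Stip1, Dnajb4, Bag1 and Hspb1.

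Ordered by their 4 group means, 16 members were lowest in WT cells at 6 months and highest in WT cells at 18 months (27.1%, against 19.6% of all tested genes), with both KO groups between. This set held genes of the HSP70, HSP90, J, BAG, TRiC, endoplasmic reticulum, mitochondrial and small heat shock classes. The reverse order, lowest in WT at 18 and highest in WT at 6 months, was found in Hspa1a, Bag2, Hspb1 and Hspb8 (6.78%, against 19.6% of all tested genes). A further 9 were lowest in KO and highest in WT cells at 18 months (15.3%, against 5.19%), among them Hspa8, Stip1, Ahsa1, Fkbp4 and P4hb. Neighbouring groups in these orders often did not differ beyond the test, as the KO groups of the 2 ages did not in Hsp90ab1 (adjusted p = 0.685).

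Per kb of the principal transcript and over all 8 libraries, Cryab had the highest level of the 59 genes (463.2 CPM per kb), followed by Hsp90ab1 (299.3), Dnajb2 (183.9) and Calr (154.9). The place of Dnajb2 depended on the length used. Per kb of all exons it had 80.29, below Calr (117.5), Hspa5 (88.48), P4hb (85.35) and Canx (82.96).

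Other genes of the same pathways, from lists of related genes, were read beside the members. Their counts stand against a background of 17.4% of all tested genes lower and 14.7% higher in KO cells at 18 months, and 19.6% lower and 19.2% higher at 6 months. Of 33 tested genes of the unfolded protein response and endoplasmic reticulum folding, 11 were lower and 3 higher in KO cells at 18 months and 10 lower and 1 higher at 6 months. Xbp1, the transcription factor of that response, had 84.4 and 78.4 CPM in KO and 113.1 and 119.8 CPM in WT libraries at 18 months (-0.52, adjusted p = 2.3e-06). In the younger mice it had 82.8 and 87.3 CPM in KO and 115.4 and 123.5 CPM in WT libraries (-0.49, adjusted p = 8.43e-06). Manf, a secreted factor induced with BiP, had 33.1 and 34.2 CPM in KO and 45.8 and 48.6 CPM in WT libraries at 18 months (-0.49, adjusted p = 0.000161). The 6-month values were 35.6 and 33.0 CPM in KO and 54.6 and 60.3 CPM in WT libraries (-0.74, adjusted p = 1.39e-06). Both had the order of Hspa5, with all KO libraries below all WT libraries. Txndc5, a disulfide isomerase, was higher in KO cells at 18 months (0.59, adjusted p = 4.56e-05) and lower at 6 months (-0.64, adjusted p = 7.73e-06), and Herpud1, a component of endoplasmic reticulum protein disposal, had 0.02 (adjusted p = 0.876) and -0.59 (adjusted p = 1.67e-06).

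Of 9 tested partners of TRiC, including the prefoldin subunits, 4 were lower in KO cells at 18 months and 2 were higher at 6 months, and the others were not called. Vbp1, a prefoldin subunit, averaged 49.9 CPM in KO and 75.2 CPM in WT cells at 18 months (-0.59, adjusted p = 1.8e-05), and 52.2 CPM in KO and 28.1 CPM in WT cells at 6 months (0.90, adjusted p = 7.89e-07). Pfdn5, another subunit, was lower in KO cells at 18 months (-1.03, adjusted p = 3.33e-08), with -0.10 at 6 months (adjusted p = 0.501). Of 20 further genes of the HSP70 and HSP90 machinery, 5 were lower and 3 higher in KO cells at 18 months and 5 were higher at 6 months, when the other 15 were not called. Cdc37l1, a relative of the kinase co-chaperone Cdc37, had the largest level among them, 1063 CPM in KO and 964.7 CPM in WT cells at 18 months (0.14, adjusted p = 0.0686) and 775.6 CPM in KO and 449.7 CPM in WT cells at 6 months (0.79, adjusted p = 1.62e-10). Fkbp5, an immunophilin of the glucocorticoid receptor complex and a target of that receptor, was higher in KO cells at 18 months (0.74, adjusted p = 4.89e-05).

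Of 19 further tested J proteins, 7 were lower and 1 higher in KO cells at 18 months and 1 was lower and 4 were higher at 6 months. Of 14 other mitochondrial folding and protease genes, 2 were lower at 18 months and the others not called, and 1 was lower and 1 higher at 6 months. Of 3 other small heat shock genes with enough reads, Hspb11 was lower in KO cells at 18 months (-0.84, adjusted p = 0.0193), and at 6 months the unadjusted p of all 3 was 0.11 or more.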

How the data were processed

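RNA of sorted cortical cells was sequenced in 8 libraries. The deposited values are raw read counts per gene, 1 table per library. Per the submitters' processing notes, the authors' tools were featureCounts 1.5.0-p1, STAR 2.5.2a and CASAVA 1.8.2, and the genome build was mm10. Strand handling, treatment of multiply mapped reads and annotation release were not given in the sources used here. Symbols were taken from GENCODE for mm10 and matched 55480 of 55573 IDs (99.83%). The members and all lists were chosen with earlier results of these data known.

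Counts were tested with edgeR's quasi-likelihood F test (version 4.0.16, R 4.3.3) after TMM scaling and filterByExpr at a minimum count of 10. The 4 groups were in 1 model, p-values were adjusted by Benjamini-Hochberg over all 18205 tested genes, and calls were made at 0.05. The fit had 4 residual and 19.1 prior degrees of freedom and a common coefficient of variation of 0.0539. A fold change is a log2 value with its standard error. An exact permutation test of 2 against 2 libraries cannot go below p = 0.333 and was not used. DESeq2 1.42.0, other scalings, filters, a replicate term and leaving out each library were tried as alternatives. The scripts were tested on simulated data. Promoters came from RefSeq (GRCm38.p6). Values are given for every library where a gene had 1 of the 4 smallest adjusted p-values in a direction of a pairwise comparison or 1 of the 4 smallest in the interaction, where it had the highest mean of its class, and for Hspa1a, Hspa1b and Hsf1. A few others were added for comparison.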

Additional observations from a re-analysis of the deposited data

Results flagged for a closer look

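In 29 members the difference between KO and WT cells was not the same at the 2 ages, by edgeR's quasi-likelihood test of the interaction of genotype and age (adjusted p under 0.05). These were 49.2% of the members, against 39.1% of all tested genes. Among genes of at least 10 CPM 27 of 55 members were called (49.1%), against a background of 53.5%. The values are the log2 genotype effect at 18 months less the one at 6 months, so a negative value means that KO cells stood lower against WT cells at 18 months than at 6 months. In the J proteins and the small heat shock proteins the values were -1.52 for Dnajc6, -1.48 for Dnajb2, -0.36 for Dnajc7, 0.34 for Dnajb1 and 0.74 for Dnajb5, and -1.58 for Cryab, 1.61 for Hspb1 and 2.01 for Hspb8. In HSP90 and its co-chaperones they were -0.83 for Hsp90ab1, -0.78 for Hsp90aa1, -0.57 for St13, -0.46 for Fkbp4, -0.45 for Ahsa1 and -0.31 for Stip1. In HSP70 and HSP110 they were -0.51 for Hspa4, -0.35 for Hspa8, 0.30 for Hsph1, 0.36 for Hspa4l and 0.85 for Hspa1a.

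In the endoplasmic reticulum class the values were -0.86 for Canx, -0.70 for Sdf2l1, -0.51 for P4hb, -0.38 for Hsp90b1 and 0.35 for Pdia4. In TRiC they were -0.60 for Cct6a, -0.38 for Cct8, -0.34 for Cct2 and -0.32 for Cct7, and in the mitochondrial class -0.66 for Hspd1. Of the 29 calls 22 were kept without any 1 library, and the 7 lost in at least 1 such fit were those of Hspa4l, Hsph1, Stip1, Dnajb1, Cct7, Sdf2l1 and Hspb1. Over all settings tried 16 of the 29 were kept.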

How the results depend on the processing

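No single member changed sign in a called result under any alternative. Counts of called members kept within 1.5 times of the value given, except the following. Members higher in KO than in WT cells at 18 months numbered 3 with DESeq2 and ranged from 2 to 6 over the fits without 1 library (3 without replicate 1 of KO at 18 months and 2 without replicate 2 of WT at 18 months). Members higher at 18 than at 6 months in KO cells numbered 13 with library totals alone and 2 to 6 without 1 library (2 without replicate 2 of KO at 6 months). Members with a positive interaction numbered 4 with DESeq2, 13 with library totals alone and 5 to 8 without 1 library (5 without replicate 2 of WT at 18 months), and those with a negative interaction 12 with library totals alone. Library totals alone moved the median log2 fold change of all tested genes to 0.141 for KO against WT at 18 months and to -0.139 for age in WT cells, and the cause of the moved counts was not tested. Without the member with the highest level, the log2 ratio of the small heat shock sum was 1.01 for KO against WT at 18 months, -0.88 at 6 months and -2.09 for 18 against 6 months in WT cells, each the reverse of the sum with Cryab.

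Of the called members, 27 of 37 at 18 months and 15 of 23 at 6 months kept their call in every fit without 1 library, as did 33 of 40 for age in WT cells, 8 of 14 for age in KO cells and 22 of 29 for the interaction. The replicate numbers of the labels did not pair the libraries (correlations of deviations from -5.24e-06 to 0.0758 over 6 pairs of groups). With the replicate block 6 members were higher and 31 lower in KO cells at 18 months and 10 higher and 16 lower at 6 months, and no single call was lost. Low counts limit Hspb1, Bag2 and Hspe1, which had under 10 CPM in every library.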
